A study of Mus musculus with 4 samples.

Results

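Leukotrienes and prostaglandins are lipid mediators that leukocytes make from arachidonic acid, and 10 genes for the enzymes of their synthesis were measured by RNA-Seq in neutrophils of the injured mouse heart. The genes were taken by name from the deposited tables as a fixed list, chosen with earlier results of these data known, and all 10 were found among the 25655 genes of the tables. They are *Alox5*, *Alox5ap*, *Lta4h*, *Ltc4s* and *Mgst2* for leukotrienes, *Ptgs1*, *Ptgs2*, *Ptges* and *Hpgds* for prostaglandins, and *Mgst1*, a relative of *Mgst2*.

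The 4 libraries held neutrophils of the SiglecF lo and SiglecF hi subsets, 1 library for each subset in WT mice and in *Cd300a-/-* mice, which lack the inhibitory receptor CD300a. Per the methods, the mice were males of 8 to 12 weeks, C57BL/6J for WT and of a C57BL/6 background for *Cd300a-/-*. Their left anterior descending coronary artery was tied for a time and then released (MI/R), and the hearts were taken on day 3. Collagenase at 37°C freed the cells, CD45.2+CD11b+Ly6G+ cells were sorted by SiglecF, called SiglecF+ and SiglecF- in the labels, and the cells of 8 mice were pooled for each library. Each group is a single library, so differences have no replicate check and no test between conditions was made. Total counts on genes were 9631901 for the SiglecF lo subset of WT mice, 10988619 for that of *Cd300a-/-* mice, and 19278243 and 17632989 for the SiglecF hi subset of WT and *Cd300a-/-* mice. Values of a gene are given in this order of libraries.

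The labels were first checked against the genes they rest on. *Cd300a* had 3024, 28, 6640 and 27 counts, so both *Cd300a-/-* libraries held few of its reads. *Siglecf* had a level of 11.3, 15.3, 354 and 405 TPM, a measure of transcripts that is corrected for gene length and for depth, high in both SiglecF hi libraries. *Ly6g*, which encodes the surface protein used to sort all 4 libraries, had 330, 889, 11.1 and 41.9 TPM and was far lower in both SiglecF hi libraries. The 13 neutrophil genes looked at, such as *S100a8*, *Csf3r* and *Cxcr2*, were above 3 counts in every library and summed to 165325, 213804, 35040 and 41309 TPM, with *S100a9* the most abundant at 76228, 89228, 13719 and 15355 TPM.

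In the leukotriene branch, 5-lipoxygenase, held at the nuclear membrane by its activating protein FLAP, turns arachidonic acid into leukotriene A4. Leukotriene A4 hydrolase then makes leukotriene B4, a strong neutrophil attractant, whereas leukotriene C4 synthase adds glutathione to make the cysteinyl leukotrienes. In the prostaglandin branch, the cyclooxygenases make prostaglandin H2, from which terminal synthases make prostaglandin E2, D2 and other prostanoids, and neutrophils are known as a main source of leukotriene B4 in inflamed tissue.

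*Alox5ap*, for FLAP, was the most abundant of the 10 genes in every library, followed by *Ptgs2*, and *Ptges* was the lowest. Since TPM is per length, levels of different genes are compared on this scale. In WT SiglecF lo neutrophils the order went on with *Mgst1* and *Alox5*, whose 95% counting intervals overlapped (165 to 181 and 155 to 168 TPM), then *Lta4h*. *Ltc4s* and *Ptgs1* followed with overlapping intervals (24.9 to 36.2 and 22.4 to 27.5 TPM), as did *Mgst2* and *Hpgds* (7.60 to 15.3 and 7.37 to 10.2 TPM). In WT SiglecF hi neutrophils *Alox5* stood in the third place and *Ptgs1* and *Ltc4s* came next with overlapping intervals (106 to 115 and 98.1 to 114 TPM), ahead of *Lta4h* and *Mgst1*, which overlapped as well (69.1 to 77.1 and 68.9 to 76.9 TPM). *Cd300a-/-* SiglecF hi neutrophils had the same order as their WT counterpart. There *Ptgs1* and *Ltc4s* overlapped again, *Lta4h* and *Mgst1* did not, and *Mgst2* (0.594 to 3.05 TPM) and *Ptges* (0.192 to 0.687 TPM) did. In *Cd300a-/-* SiglecF lo neutrophils *Mgst2* stood between *Lta4h* and *Ltc4s* and overlapped the former, and *Ltc4s* overlapped *Ptgs1*. The intervals rest on a gene's counts alone. They cover counting error and nothing else, as reads carried no molecular identifiers and so need not be separate molecules, and the animals within a pool were not tagged.

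**Figure D1:**
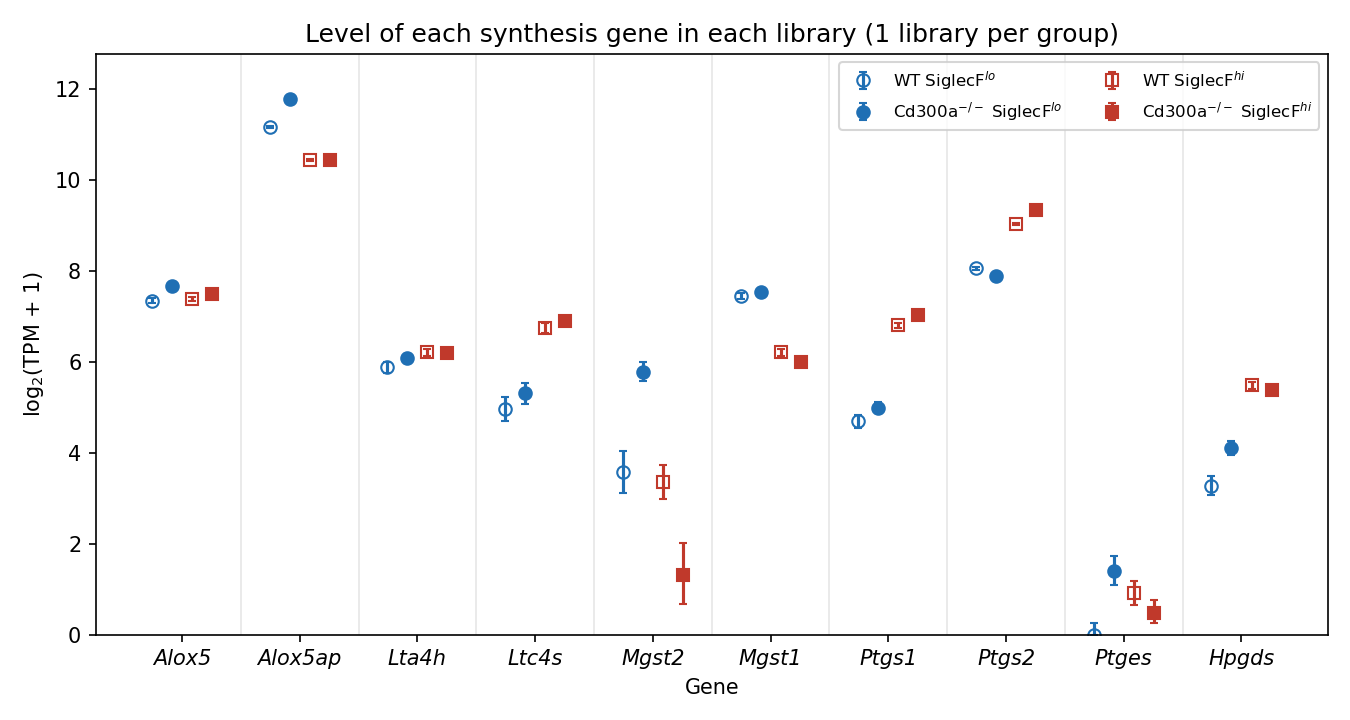
Level of each of the 10 genes as log2(TPM + 1) on the vertical axis, in the 4 libraries. Points are single libraries (circles SiglecF lo, squares SiglecF hi, open WT, filled *Cd300a-/-*) and bars are 95% counting intervals. *Alox5ap* is highest in each library, and both squares lie above both circles for *Lta4h*, *Ltc4s*, *Ptgs1*, *Ptgs2* and *Hpgds*. For *Lta4h* the bars of the *Cd300a-/-* libraries overlap.

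The log2 of the (TPM + 1) ratio is used for differences between libraries, a scale on which those of low genes come out too small. A gene is counted as higher or lower when its mean TPM over the 4 libraries was over 10, which held for 6523 genes and for 9 of the 10 genes described here, and when this log2 ratio was past 0.5. *Ptges* missed the limit. *Mgst2* was over 10 TPM in both SiglecF lo libraries but in neither SiglecF hi library. Its mean passed only through the *Cd300a-/-* SiglecF lo library, in which it was high. Across all genes tested, SiglecF hi neutrophils had a median log2 ratio to SiglecF lo neutrophils of 0.53 in WT and 0.61 in *Cd300a-/-* mice, against -0.02 and 0.04 for the genotypes in SiglecF lo and SiglecF hi neutrophils. Beside this shift, *S100a8* and *S100a9* together took 13.8%, 17.3%, 2.41% and 2.78% of all TPM. Subset ratios are therefore also given relative to the median.

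Between subsets, *Ltc4s*, *Ptgs1*, *Ptgs2* and *Hpgds* were higher in SiglecF hi than in SiglecF lo neutrophils of both genotypes, and *Alox5ap* and *Mgst1* were lower. In WT mice, 4 of the 9 genes were higher, where 51.9% of all genes tested were, and 2 were lower, where 7.47% were. In *Cd300a-/-* mice, 4 were higher, against 56.6% of all genes, and 3 were lower, against 7.97%. *Mgst2* is among these lower genes and passed the TPM limit only through the SiglecF lo library of *Cd300a-/-* mice. Relative to the median the split in WT was 3 higher and 3 lower (19.3% and 20.9% of all genes), and in *Cd300a-/-* mice 4 higher and 5 lower (21.2% and 23.6%). With TMM-scaled CPM it was 3 and 4 in WT (20.1% and 21.0% of all genes), and 4 and 4 in *Cd300a-/-* mice (24.2% and 21.9%). Counts over so few genes are a description, and a lower level in pooled sorted cells can mean fewer cells of a type or less RNA per cell, which cannot be told apart.

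Between genotypes, *Alox5ap*, *Mgst2* and *Hpgds* stood higher without CD300a in SiglecF lo neutrophils, and *Mgst2* stood lower without it in SiglecF hi neutrophils. In SiglecF lo neutrophils, 3 of the 9 genes were thus higher, where 16.4% of all genes tested were, and 0 were lower, where 19.9% were. *Mgst2* is among the 3, although it passed the TPM limit only through the *Cd300a-/-* SiglecF lo library itself. In SiglecF hi neutrophils, 0 were higher, against 3.31% of all genes, and 1 was lower, against 3.46%. For the SiglecF lo subset the 9 genes had a median log2 ratio of 0.32, and for the SiglecF hi subset one of -0.0020. Each library enters 1 genotype and 1 subset comparison, so these ratios are not independent of each other.

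**Figure D2:**
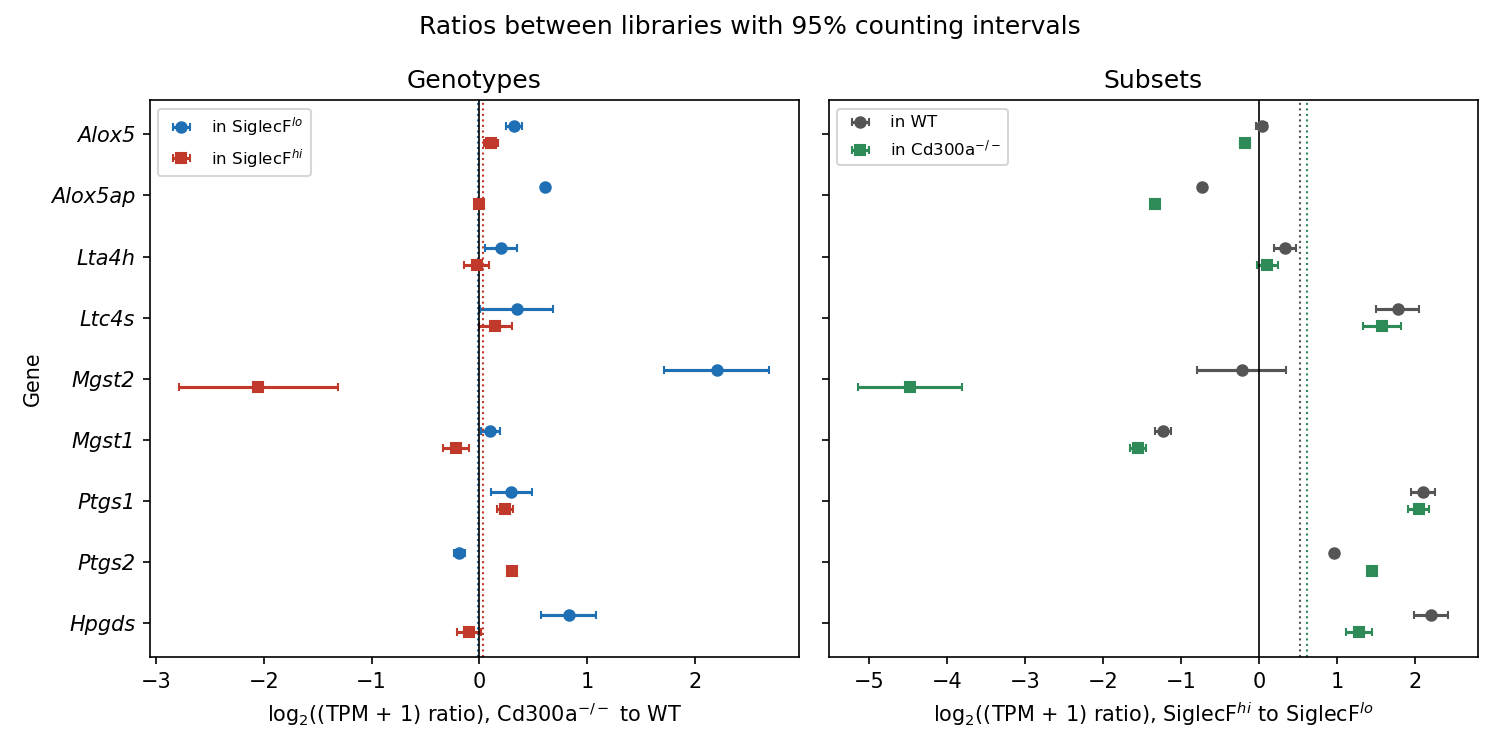
The log2((TPM + 1) ratio) of the 9 genes with a mean TPM over 10, *Cd300a-/-* to WT on the left and SiglecF hi to SiglecF lo on the right. Points compare 2 single libraries, bars are 95% counting intervals and dotted lines mark the median of the 6523 genes tested. *Mgst2* lies on opposite sides of 0 in the genotype comparisons of the subsets, at 2.20 and -2.05.

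*Alox5* (ENSMUSG00000025701, chr6:116387038-116438139 on the minus strand of GRCm39), for 5-lipoxygenase, had 161, 202, 165 and 178 TPM from 2338, 3225, 4091 and 3952 counts. The log2 ratio of *Cd300a-/-* to WT was 0.32 (0.24 to 0.40) in SiglecF lo and 0.11 (0.05 to 0.17) in SiglecF hi neutrophils, neither past 0.5. Between subsets it was 0.03 (-0.04 to 0.11) in WT and -0.18 (-0.24 to -0.11) in *Cd300a-/-* mice. Relative to the median of all genes, these were -0.49 and -0.79, and with TMM-scaled CPM -0.50, barely past the threshold, and -0.76. *Alox5* would thus count as lower in *Cd300a-/-* mice on either of these scales and in WT mice with TMM-scaled CPM, while its level ranked 944 and 889 by TPM in the SiglecF hi libraries.

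*Alox5ap* (ENSMUSG00000060063, chr5:149201577-149224963 on the plus strand) had 2286, 3490, 1382 and 1380 TPM from 16313, 27475, 16841 and 15054 counts. It ranked 51, 25, 100 and 98 among all genes by TPM, and both SiglecF lo libraries lay above both SiglecF hi libraries. *Alox5ap* was higher in SiglecF lo neutrophils of *Cd300a-/-* than of WT mice by a log2 ratio of 0.61 (0.58 to 0.64), whereas the ratio in SiglecF hi neutrophils was -0.0020 (-0.03 to 0.03). It was lower in SiglecF hi neutrophils by -0.73 (-0.76 to -0.69) in WT and -1.34 (-1.37 to -1.31) in *Cd300a-/-* mice, or -1.25 and -1.95 relative to the median. FLAP hands arachidonic acid to 5-lipoxygenase, and the level of *Alox5ap* was 14.2, 17.3, 8.36 and 7.74 times that of *Alox5* in TPM. This ratio within a library, which no scaling between libraries touches, was higher in the SiglecF lo libraries. *Alox5ap* made up 89.8%, 90.6%, 79.6% and 78.9% of the summed TPM of the 5 leukotriene genes.

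Genes of early granules and other neutrophil genes are set beside *Alox5ap*, and the most abundant gene of a list is that with the highest mean TPM of the 4 libraries. Of the 14 early granule genes looked at, 8 passed the TPM limit. In each subset 6 were higher in *Cd300a-/-* than in WT neutrophils, against 16.4% of all genes for SiglecF lo and 3.31% for SiglecF hi neutrophils. Higher in both subsets were 5 (*Ngp*, *Ltf*, *Lcn2*, *Mmp8* and *Itgb2l*), where 1.24% of all genes were. The median log2 ratios of the 8 were 1.21 and 1.29, beside 0.61 and -0.0020 for *Alox5ap*. Between subsets, *Ngp*, *Camp*, *Ltf*, *Lcn2*, *Mmp8* and *Itgb2l* were lower in SiglecF hi neutrophils of each genotype, 6 of the 8 against 7.47% and 7.97% of all genes. *Cebpe* was higher in WT mice, at 0.75 (0.36 to 1.13), but relative to the median it was at 0.22, under 0.5. The 14 genes summed to 5414, 12510, 973 and 1770 TPM, and the most abundant, *Lcn2*, had 2385, 6124, 242 and 568 TPM, although *Chil3* was above it in WT SiglecF hi neutrophils at 566 TPM. None of the 14 was at 0 in all libraries, and 1 was at or under 3 counts in each. Among the 13 neutrophil genes, *Cd300a-/-* mice had 4 higher and 1 lower in SiglecF lo neutrophils, where 16.4% and 19.9% of all genes were, and 2 higher and 0 lower in SiglecF hi neutrophils, against 3.31% and 3.46%. Of the same 13, 9 were lower in SiglecF hi than in SiglecF lo neutrophils of WT mice and 8 in *Cd300a-/-* mice, against 7.47% and 7.97% of all genes. *Mgst1* was lower in the same SiglecF hi libraries, and the part of these cells' genes in either level was not tested.

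The 2 enzymes that act on leukotriene A4 differed in how they stood between the subsets. *Lta4h* (ENSMUSG00000015889, chr10:93289273-93320737, plus strand), which makes leukotriene B4, had 57.7, 66.5, 73.0 and 71.8 TPM from 602, 765, 1300 and 1144 counts. No log2 ratio of *Lta4h* was past 0.5 on the main scale. It was 0.20 (0.05 to 0.35) and -0.02 (-0.14 to 0.09) between genotypes in SiglecF lo and SiglecF hi neutrophils. Between subsets it was 0.33 (0.20 to 0.47) in WT and 0.11 (-0.02 to 0.24) in *Cd300a-/-* mice. Both turned negative relative to the median of all genes, at -0.19 and -0.51, and with TMM-scaled CPM, at -0.20 and -0.47. *Lta4h* would thus count as lower in *Cd300a-/-* mice relative to the median, barely past the threshold, but not with TMM-scaled CPM.

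*Ltc4s* (ENSMUSG00000020377, chr11:50127288-50129443, minus strand), which makes leukotriene C4, had 30.1, 38.6, 106 and 117 TPM from 114, 161, 684 and 679 counts. Both SiglecF hi libraries lay above both SiglecF lo libraries, by a log2 ratio of 1.78 (1.50 to 2.06) in WT and 1.58 (1.34 to 1.82) in *Cd300a-/-* mice. Relative to the median these were 1.25 and 0.97. Between genotypes the ratio was 0.35 (0.01 to 0.68) in SiglecF lo and 0.15 (-0.0039 to 0.30) in SiglecF hi neutrophils, so the counting interval in SiglecF lo neutrophils reached past 0.5 as well as close to 0. Within a library, the TPM of *Ltc4s* was 0.522 (0.427 to 0.638), 0.580 (0.490 to 0.688), 1.45 (1.32 to 1.59) and 1.64 (1.49 to 1.80) times that of *Lta4h*. The order of these transcripts was thus reversed between subsets, with *Lta4h* above *Ltc4s* in both SiglecF lo libraries and below it in both SiglecF hi libraries.

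*Mgst2* (ENSMUSG00000074604, chr3:51567781-51590098, plus strand) encodes a membrane-bound glutathione transferase that can also make leukotriene C4. It had 34, 185, 49 and 7 counts, or 11.0, 54.1, 9.26 and 1.48 TPM. The *Cd300a-/-* SiglecF lo library was the highest and the *Cd300a-/-* SiglecF hi library the lowest, with both WT libraries between them and overlapping in their counting intervals. *Mgst2* was higher in SiglecF lo neutrophils of *Cd300a-/-* than of WT mice by a log2 ratio of 2.20 (1.71 to 2.69) and lower in SiglecF hi neutrophils by -2.05 (-2.78 to -1.32). With TMM-scaled CPM the latter was -1.26, outside this interval. That scale also took a pseudocount of 1 but is not per length, so the pseudocount weighs more on this gene. With a pseudocount of 0.1 on TPM the ratio was -2.57. Between subsets the ratio was -0.22 (-0.80 to 0.35) in WT and -4.48 (-5.14 to -3.81) in *Cd300a-/-* mice. These were -0.75 and -5.09 relative to the median and -0.59 and -3.92 with TMM-scaled CPM, so in WT mice *Mgst2* would count as lower on either of these scales. The value in *Cd300a-/-* SiglecF hi neutrophils rests on 7 counts, and its interval reached from 0.594 to 3.05 TPM. *Gm37261*, which lies inside *Mgst2* on the same strand, had 0 counts in each library.

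*Mgst1* (ENSMUSG00000008540, chr6:138117314-138133753, plus strand) belongs to the same family of membrane proteins as *Mgst2*, *Ltc4s*, *Alox5ap* and *Ptges*, and is known for detoxifying lipid peroxides. It had 173, 186, 72.9 and 62.6 TPM from 1788, 2119, 1287 and 990 counts. Both SiglecF hi libraries lay below both SiglecF lo libraries, with a log2 ratio of -1.24 (-1.34 to -1.13) in WT and -1.55 (-1.66 to -1.45) in *Cd300a-/-* mice, or -1.76 and -2.17 relative to the median. Between genotypes the ratio was 0.10 (0.01 to 0.19) and -0.22 (-0.33 to -0.10) in SiglecF lo and SiglecF hi neutrophils. The level of *Mgst1* was 15.8, 3.43, 7.87 and 42.4 times that of *Mgst2* in TPM.

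Both cyclooxygenase genes were higher in SiglecF hi neutrophils. *Ptgs1* (ENSMUSG00000047250, chr2:36120438-36142284, plus strand), for the cyclooxygenase that most cells make without stimulation, had 24.8, 30.8, 110 and 130 TPM from 366, 500, 2776 and 2937 counts. SiglecF hi libraries lay above SiglecF lo libraries by a log2 ratio of 2.11 (1.96 to 2.26) in WT and 2.05 (1.92 to 2.18) in *Cd300a-/-* mice, or 1.58 and 1.44 relative to the median. The genotypes stood close, at 0.30 (0.11 to 0.49) and 0.24 (0.17 to 0.31) in SiglecF lo and SiglecF hi neutrophils. *Gm43621*, antisense inside *Ptgs1*, had 0 counts in each library.

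*Ptgs2* (ENSMUSG00000032487, chr1:149975782-149983978, plus strand), for the cyclooxygenase induced by inflammatory signals, had 266, 234, 520 and 641 TPM from 6256, 6073, 20912 and 23076 counts. It was higher in SiglecF hi than in SiglecF lo neutrophils by 0.97 (0.93 to 1.01) in WT and 1.45 (1.41 to 1.49) in *Cd300a-/-* mice. Relative to the median these were 0.44, under 0.5, and 0.84, and with TMM-scaled CPM 0.43 and 0.87. Between genotypes the ratio had opposite signs, -0.18 (-0.23 to -0.13) in SiglecF lo and 0.30 (0.27 to 0.33) in SiglecF hi neutrophils, neither past 0.5. *Ptgs2* stood at 10.7, 7.60, 4.72 and 4.92 times the TPM of *Ptgs1*, so the inducible transcript prevailed in each library and by less in both SiglecF hi libraries.

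*Ptgs2* is an immediate early gene in many cells, and digestion of tissue at 37°C is known to induce such genes. All 14 immediate early genes looked at were above the TPM limit, with sums of 9228, 8167, 11640 and 12639 TPM and *Junb* most abundant at 2259, 1973, 2757 and 3038 TPM. Between subsets, 8 of them were higher in SiglecF hi neutrophils of WT mice and 9 in *Cd300a-/-* mice, near the 51.9% and 56.6% of all genes, and their median log2 ratios of 0.54 and 0.57 were 0.02 and -0.04 relative to that of all genes. Their part in the level of *Ptgs2* was not tested.

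Of the terminal synthases, *Hpgds* was measured well and *Ptges* barely. *Hpgds* (ENSMUSG00000029919, chr6:65094277-65121892, minus strand), for the hematopoietic synthase of prostaglandin D2, had 8.68, 16.2, 43.7 and 40.8 TPM from 155, 319, 1334 and 1114 counts. The WT SiglecF lo library was the lowest, the *Cd300a-/-* SiglecF lo library came next and both SiglecF hi libraries were high. It was higher in SiglecF hi neutrophils by a log2 ratio of 2.21 (1.99 to 2.43) in WT and 1.28 (1.11 to 1.45) in *Cd300a-/-* mice, or 1.68 and 0.67 relative to the median. *Cd300a-/-* SiglecF lo neutrophils had more than WT, at 0.83 (0.58 to 1.08), and in SiglecF hi neutrophils the ratio was -0.10 (-0.21 to 0.01). With a TPM over 10 asked of both libraries compared, its 2 ratios against the WT SiglecF lo library would not count.

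*Ptges* (ENSMUSG00000050737, chr2:30779483-30819875, minus strand), for the microsomal prostaglandin E synthase that is induced together with *Ptgs2*, had 0, 34, 28 and 11 counts, or 0, 1.64, 0.875 and 0.384 TPM. For the count of 0 a floor of 3 counts was used, worth 0.160 TPM in the WT SiglecF lo library. The counting interval of this 0 reached further, to 0.197 TPM. Against the floor *Ptges* was 10.3-fold higher in the *Cd300a-/-* library of the same subset. It was 5.46-fold higher in the SiglecF hi library of WT mice. The floor stands for the 0 alone, so these folds leave out the counting error of the 34 and 28 counts. They are therefore not lower bounds, and the folds may be smaller. The levels were nevertheless low, since *Ptgs2* had 234 to 641 TPM in the libraries that held *Ptges* reads.

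Genes of macrophages, which are also known to use *Ltc4s*, *Ptgs1*, *Ptgs2* and *Hpgds*, had higher sums in both SiglecF hi libraries as well. All 15 macrophage genes looked at, among them *Adgre1*, *Csf1r* and *C1qa*, were above the TPM limit. They summed to 6488, 5504, 17828 and 16313 TPM, and *Apoe* led them with 2637, 2109, 8313 and 8107 TPM. Between genotypes, 1 of the 15 was higher and 4 were lower in *Cd300a-/-* SiglecF lo neutrophils, against 16.4% and 19.9% of all genes. In SiglecF hi neutrophils 1 was higher and 0 were lower, against 3.31% and 3.46%. Between subsets, 10 were higher and 1 was lower in SiglecF hi neutrophils of WT mice, against 51.9% and 7.47% of all genes. In *Cd300a-/-* mice 13 were higher and 0 were lower, against 56.6% and 7.97%. Their median log2 ratios were 0.81 and 0.52 relative to that of all genes. None was at 0 in any library, and their part in the higher levels of the 4 synthesis genes was not tested.

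Other cell types that make these mediators were looked at through their defining genes. Of 11 mast cell and basophil genes, *Cpa3*, *Cma1*, *Tpsb2*, *Tpsab1*, *Mcpt4*, *Mcpt8* and *Fcer1a* had 0 counts in all 4 libraries, and the list summed to 5.03, 17.8, 3.42 and 5.29 TPM. *Kit* was its most abundant gene by mean at 1.15, 13.2, 1.50 and 1.45 TPM, highest in the same library as *Mgst2*, and *Gata2* was above it in WT SiglecF lo and *Cd300a-/-* SiglecF hi neutrophils at 2.75 and 2.80 TPM. Of 9 eosinophil genes, which summed to 184, 103, 471 and 525 TPM, the most abundant by mean was *Siglecf*, by which the cells were sorted. In both SiglecF lo libraries it was *Ear2*, with 171, 85.9, 110 and 113 TPM. *Ear2* was lower in SiglecF hi neutrophils of WT mice by a log2 ratio of -0.63 (-0.78 to -0.48). In *Cd300a-/-* mice its ratio was 0.39 (0.21 to 0.58), which turned to -0.22 relative to the median, beside -1.16 in WT mice. The eosinophil peroxidase gene *Epx* had 0 counts in all 4 libraries, and *Prg2* reached 2 counts in the SiglecF hi library of WT mice and 0 elsewhere. *Ear1* and *Ear6* had 6 and 4 counts in that library alone, and *Prg3* had 6 in the SiglecF hi library of *Cd300a-/-* mice alone. *Ccr3*, under the TPM limit, had 25, 33, 141 and 141 counts, with log2 ratios between subsets of 1.25 (0.86 to 1.64) in WT and 1.22 (0.85 to 1.60) in *Cd300a-/-* mice. Relative to the median these were 0.72 and 0.61. *Il5ra*, also under the limit, had 12, 4, 11 and 9 counts, with ratios of -0.29 (-0.68 to 0.10) and 0.14 (-0.19 to 0.47), or -0.82 and -0.47 relative to the median. The part of eosinophils in the synthesis genes was not tested. The 10 genes looked at of platelets, which are known to use *Ptgs1*, summed to 354, 244, 881 and 644 TPM, but *Pf4*, which macrophages also express, made up 345, 235, 867 and 627 TPM of it, and *Gp1bb* had 0 counts in each library. *Ppbp* had 34, 47, 90 and 97 counts, or 6.11, 7.66, 9.47 and 11.4 TPM, *Tubb1* had 0, 0, 22 and 17 counts, and *Itga2b* had 26, 21, 40 and 44 counts, or 1.47, 1.08, 1.33 and 1.63 TPM. The part of platelets in the level of *Ptgs1* was not tested.

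Fibroblast genes were present as well. The 7 genes looked at summed to 964, 980, 2088 and 1475 TPM with *Dcn* most abundant at 302, 249, 586 and 465 TPM, and none was at 0. Of the 6 above the TPM limit, 1 was higher and 0 were lower in SiglecF lo neutrophils of *Cd300a-/-* than of WT mice. Of all genes, 16.4% were higher there and 19.9% lower. In SiglecF hi neutrophils 0 were higher and 3 were lower, against 3.31% and 3.46%. Between subsets, 6 were higher in SiglecF hi neutrophils of WT mice and 3 in *Cd300a-/-* mice, where 51.9% and 56.6% of all genes were. The medians between subsets were 0.59 and -0.05 relative to all genes. Endothelial genes summed to 109, 44.4, 70.1 and 86.3 TPM, led by *Cdh5* at 25.1, 9.91, 16.9 and 23.9 TPM. All 4 above the TPM limit were lower in SiglecF lo neutrophils of *Cd300a-/-* than of WT mice, where 19.9% of all genes were. In SiglecF hi neutrophils 1 was higher, against 3.31%. Between subsets, 3 were lower in SiglecF hi neutrophils of WT mice and 4 were higher in *Cd300a-/-* mice, against 7.47% and 56.6%. Their medians relative to all genes were -1.29 and 0.09. Cardiomyocyte genes summed to 43.6, 25.3, 45.6 and 62.9 TPM, with *Myl2* most abundant by mean at 13.2, 12.5, 9.99 and 16.9 TPM and *Tnnt2* above it in both SiglecF hi libraries at 13.2 and 17.9 TPM. Dendritic cell genes reached 14.5, 4.20, 6.24 and 9.41 TPM, with *Cd209a* highest by mean at 10.5, 0, 1.15 and 0.859 TPM, and lymphocyte genes 12.9, 14.7, 11.4 and 19.1 TPM, with *Cd79b* highest by mean at 2.31, 2.22, 6.13 and 7.12 TPM. What these cells added to the synthesis genes was not tested.

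The genotype ratio in SiglecF lo minus that in SiglecF hi neutrophils shows where the subsets differed in their genotype ratio, with an interval from all 4 counts. It was past 0.5 upward for 3 of the 9 genes, where 13.8% of all genes tested were, and downward for 0, where 20.3% were. These were *Mgst2* at 4.25 (3.37 to 5.14), or 3.33 with TMM-scaled CPM, *Hpgds* at 0.93 (0.65 to 1.20) and *Alox5ap* at 0.61 (0.57 to 0.65). For *Mgst2* the pseudocount weighs more on CPM than on TPM, and a pseudocount of 0.1 on TPM gave 4.86. This gene passed the TPM limit only through the *Cd300a-/-* SiglecF lo library. *Ptgs2* stood at -0.49 (-0.54 to -0.43), with its ratio above WT in SiglecF hi neutrophils. For *Ltc4s* and *Ptgs1* the intervals included 0, at 0.20 (-0.17 to 0.57) and 0.06 (-0.14 to 0.26).

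Beyond the synthesis enzymes, 70 genes were listed. They encode phospholipases A2 or regulators of arachidonic acid release, make other prostanoids, assist 5-lipoxygenase, break down or export the mediators, or bind them as receptors. Of these, 68 were in the tables and 31 passed the TPM limit. In SiglecF lo neutrophils, 7 were higher and 10 lower in *Cd300a-/-* mice, where 16.4% and 19.9% of all genes were, and in SiglecF hi neutrophils 1 was higher and 0 were lower, against 3.31% and 3.46%. Their median log2 ratios were 0.05 and 0.04, against -0.02 and 0.04 for all genes. Between subsets, 16 were higher and 4 lower in SiglecF hi neutrophils of WT mice, and 20 were higher and 5 lower in *Cd300a-/-* mice, with medians of 0.51 and 0.82 against 0.53 and 0.61. Of all genes, 51.9% were higher and 7.47% lower in WT, and 56.6% and 7.97% in *Cd300a-/-* mice. The counts between subsets carry the shift of all genes, and counts relative to the median were not made for this list.

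Of the listed phospholipases A2 and regulators of arachidonic acid release, *Pla2g7* was the most abundant by mean at 1120, 953, 656 and 603 TPM. Its product is a phospholipase that breaks down platelet-activating factor. *Pla2g4a*, for cytosolic phospholipase A2, had 11.6, 12.0, 22.8 and 20.3 TPM. Its log2 ratio between subsets was 0.92 (0.69 to 1.14) in WT and 0.71 (0.49 to 0.93) in *Cd300a-/-* mice. Relative to the median these were 0.39 and 0.09. *Anxa1*, for annexin A1, had 826, 1452, 426 and 452 TPM, above *Pla2g7* in *Cd300a-/-* SiglecF lo neutrophils, and was higher in SiglecF lo neutrophils of *Cd300a-/-* than of WT mice by 0.81 (0.78 to 0.85). Like *Alox5ap*, it was highest in the *Cd300a-/-* SiglecF lo library and lower in both SiglecF hi libraries. *Pla2g15*, a lysosomal phospholipase, went the other way at 48.9, 28.5, 114 and 96.4 TPM, with a log2 ratio of -0.76 (-0.93 to -0.59) in SiglecF lo neutrophils. Among the accessory genes of 5-lipoxygenase, *Cotl1*, whose actin-binding protein also binds the enzyme, had 1545, 1618, 1553 and 1494 TPM, and *Mapk14*, for p38α, had 79.0, 118, 81.5 and 85.5 TPM and a log2 ratio of 0.57 (0.48 to 0.66) in SiglecF lo neutrophils.

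Among other prostanoid synthases, 1 of 7 was higher and 4 were lower in SiglecF lo neutrophils of *Cd300a-/-* than of WT mice, where 16.4% and 19.9% of all genes were. *Ptgis*, for prostacyclin synthase, had 5.36, 10.6, 27.0 and 18.9 TPM and was the higher one, at 0.86 (0.49 to 1.24), a ratio between low levels of 63 and 137 counts, since its mean passed the TPM limit mostly through the SiglecF hi libraries. The 4 others were *Ptges3*, most abundant of the list at 99.6, 67.1, 133 and 127 TPM, *Akr1b3*, *Prxl2b* and *Mgst3*, with log2 ratios of -0.56, -0.79, -0.87 and -0.62. In SiglecF hi neutrophils the genotype ratios of these 5 genes ranged from -0.50 for *Ptgis* to 0.05 for *Akr1b3*.

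Of 11 genes for breakdown and export, 3 were higher and 4 lower in SiglecF lo neutrophils of *Cd300a-/-* than of WT mice, against 16.4% and 19.9% of all genes. *Ggt1*, whose γ-glutamyl transferase can turn leukotriene C4 into leukotriene D4, had 13.0, 82.8, 2.13 and 3.91 TPM from 218, 1528, 61 and 100 counts. Its log2 ratio was 2.58 (2.39 to 2.77) in SiglecF lo and 0.65 (0.31 to 0.98) in SiglecF hi neutrophils. *Ggt1* passed the TPM limit only through the *Cd300a-/-* SiglecF lo library, the same library in which the first ratio counts it as higher. The second ratio is between low levels. As with *Mgst2*, the *Cd300a-/-* SiglecF lo library was by far the highest. *Hpgd*, for the dehydrogenase that inactivates prostaglandins, had 16.7, 44.1, 45.3 and 59.9 TPM, with 1.35 (1.09 to 1.61) in SiglecF lo neutrophils, and *Ptgr2*, for a prostaglandin reductase, had 3.66, 6.04, 20.2 and 22.7 TPM, with 0.60 (0.27 to 0.92). The last ratio is between low levels of 78 and 142 counts, since *Ptgr2* passed the TPM limit only through the SiglecF hi libraries. *Ptgr1*, *Cyp4f16*, *Cyp4f13* and *Cbr3* were lower, with -0.73, -0.55, -0.89 and -0.88. *Cyp4f18*, whose product inactivates leukotriene B4 in mouse neutrophils, was the most abundant at 705, 622, 509 and 573 TPM.

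Of 4 receptors above the limit, *Ltb4r1*, for the main leukotriene B4 receptor of neutrophils, was the most abundant at 148, 210, 106 and 122 TPM. Its genotype ratio in SiglecF lo neutrophils was 0.50 (0.39 to 0.61), barely past the threshold. *Ptger2*, for a prostaglandin E2 receptor, had 13.8, 8.05, 15.1 and 17.3 TPM and was lower in SiglecF lo neutrophils of *Cd300a-/-* than of WT mice, at -0.71 (-0.97 to -0.46).

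To find the genes nearest to the most abundant gene of each branch, log2(TPM + 1) was centred on its mean over the 4 libraries, and the largest difference in any library was taken. For *Alox5ap* the nearest of 6522 other genes were *Snai1*, *Oaz2* and *Flot1*, with largest differences of 0.04, 0.09 and 0.09. *Snai1* had 15.8, 25.5, 9.14 and 9.11 TPM, thus the same steps at a far lower level. For *Ptgs2* they were *Srsf3*, *Nudc* and *Srsf6*, at 0.03, 0.04 and 0.05, and *Srsf3* had 91.7, 81.5, 176 and 216 TPM. Within a difference of 0.2 lay 38 genes for *Alox5ap* and 190 for *Ptgs2*.

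The promoters of the 4 genes that were higher in SiglecF hi neutrophils of both genotypes are shown. Such genes were 4 of the 9, where 40.8% of all genes tested were higher in both genotypes, and relative to the median *Ptgs2* was not past 0.5 in WT mice. RefSeq promoters were matched by symbol for 9 of the 10 genes, and *Alox5ap* was the exception. The 250 bases before each start were searched on both strands for the core of a PU.1 motif (AGGAAGT) and for C/EBP (TTGCNNAA), AP-1 (TGANTCA), CRE (TGACGTCA) and κB motifs, all picked after these sequences had been read. The positions are on GRCm38.p6, the build of that table, and differ from the GRCm39 positions above. *Ptgs1* is at chr2:36230176-36230425 on the plus strand, *Ltc4s* at chr11:50238533-50238782 and *Hpgds* at chr6:65144731-65144980 on the minus strand, and *Ptgs2* at chr1:150099781-150100030 on the plus strand. Capitals mark the matches, and each sequence runs 5′ to 3′ along its gene.
Ptgs1: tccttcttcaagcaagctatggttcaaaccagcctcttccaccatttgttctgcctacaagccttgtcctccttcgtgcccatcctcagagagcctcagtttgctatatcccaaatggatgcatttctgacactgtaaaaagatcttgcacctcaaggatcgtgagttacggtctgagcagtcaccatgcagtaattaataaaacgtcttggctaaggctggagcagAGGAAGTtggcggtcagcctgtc
Ltc4s: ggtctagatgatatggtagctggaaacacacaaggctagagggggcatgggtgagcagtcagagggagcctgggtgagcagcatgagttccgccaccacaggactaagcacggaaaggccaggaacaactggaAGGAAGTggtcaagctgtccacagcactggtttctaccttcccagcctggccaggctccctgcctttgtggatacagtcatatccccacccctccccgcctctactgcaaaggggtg
Hpgds: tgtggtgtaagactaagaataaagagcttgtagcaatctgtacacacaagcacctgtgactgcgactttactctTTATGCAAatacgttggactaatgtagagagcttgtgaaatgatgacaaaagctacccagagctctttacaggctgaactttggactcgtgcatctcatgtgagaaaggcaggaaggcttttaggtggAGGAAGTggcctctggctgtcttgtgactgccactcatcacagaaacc
Ptgs2: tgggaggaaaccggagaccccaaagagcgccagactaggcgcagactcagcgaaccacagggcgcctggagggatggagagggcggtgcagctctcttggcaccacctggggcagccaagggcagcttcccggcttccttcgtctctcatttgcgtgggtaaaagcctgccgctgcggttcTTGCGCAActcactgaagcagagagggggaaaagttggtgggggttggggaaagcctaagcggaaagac

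The PU.1 core was in the windows of *Ptgs1*, *Ltc4s* and *Hpgds*, where it began 23, 117 and 48 bases before the start, and in that of *Mgst2*, and 7.69% of the 32851 promoters of the table hold it. The C/EBP motif was in the windows of *Ptgs2*, *Hpgds* and *Mgst1* and in 9.56% of all promoters. In *Ptgs2* it is its own reverse complement and began 69 bases before the start. AP-1 was in *Mgst2* and in 6.75% of all promoters, and neither CRE (1.55% of all) nor κB (3.90%) was in the windows of the 9 genes. No match overlapped one of another motif. A match describes letters in a window and not a site that a factor binds.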

How the data were processed

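Per the methods, poly(A) RNA was made into libraries with the NEBNext Ultra II kit, which does not mark strand, sequenced as paired ends and processed in CLC Genomics Workbench. The build is GRCm39 per the submitters' processing notes, and mapping settings and annotation release are not given in the sources used here. The deposited count of a gene is not normalized, and no source says if reads or pairs were counted. The authors also deposited RPKM, TPM and a scaled signal named CPM, of which RPKM and the signal were not used here.

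Groups came from the sample labels. Log2 ratios of TPM used a pseudocount of 1, with 95% intervals from the Poisson error of the counts (delta method) and exact Poisson intervals for levels. No additive fit was used. Alternatives were a pseudocount of 0.1, TMM-scaled CPM with a pseudocount of 1, centring on the median, other TPM limits and a log2 threshold of 1. The 10 genes and all lists were chosen with earlier results of these data known. Named genes are the 10, the pathway genes past 0.5 between genotypes, the most abundant gene of each list, the 3 nearest profiles per branch and the sort and knockout genes. Other names, such as markers of cell types, were chosen after their values were seen. Steps were tested on simulated data (Python 3.11.15, numpy 2.4.6, pandas 2.3.3, scipy 1.17.1, matplotlib 3.10.9, edgeR 4.0.16 in R 4.3.3).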

Additional observations from a re-analysis of the deposited data

Results flagged for a closer look

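Of the synthesis and named pathway genes above the TPM limit, *Pla2g4a* aside, 29 were looked at. In 8 of them the *Cd300a-/-* to WT ratio had opposite signs in the subsets, with counting intervals that excluded 0 in both. Of all 6523 genes tested, 1029 (15.8%) did so, and most of the pathway genes had been named for a ratio past 0.5 between genotypes. The difference was not tested, since each group has 1 library. As the log2 ratio in SiglecF lo minus that in SiglecF hi neutrophils, it was 4.25 for *Mgst2*, 1.36 for *Ptgis* and 0.32 for *Mgst1*. It was -1.20 for *Cyp4f13*, -0.90 for *Ptger2*, -0.49 for *Ptgs2* and -0.35 for *Cyp4f18*. For *Cotl1* it was 0.12, which high counts set apart from 0 although the ratios were only 0.07 and -0.06. Of these 8 genes, *Mgst2* alone was past 0.5 in both subsets.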

How the results depend on the processing

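The number of synthesis genes past the threshold was within 1.5 times its main value under most alternatives. With a log2 threshold of 1, the 3 genes between genotypes in SiglecF lo neutrophils became 1, because the threshold is stricter. At this threshold, 4 higher and 2 lower between subsets in WT mice became 3 higher and 1 lower. With a TPM over 10 in both libraries compared, the 1 gene in SiglecF hi neutrophils became 0, because *Mgst2* is then left out. That limit also leaves out *Hpgds* against WT SiglecF lo neutrophils, so 3 higher between genotypes became 2 in this subset and 4 higher between subsets became 3 in WT mice, and *Mgst2* between subsets, so 3 lower became 2 in *Cd300a-/-* mice. Of 140 values of single genes under another pseudocount, TMM-scaled CPM or centring on the median, 93 moved by less than their counting interval and 47 by more. Of those past the threshold, 0 changed sign. No paired analysis was made, as each group has 1 library and no test between conditions was run.

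The counts limit precision most for *Mgst2* and *Ptges*, with 7 and 0 counts in their lowest libraries. Pools of 8 mice, 1 per group, leave the spread between animals unknown. The intervals cover counting error only, so an interval that excludes 0 says at most that 2 libraries differ on the scale used. It does not say that the genotypes or subsets do. Subset ratios depend on the scale, since the medians of all genes lay at 0.53 and 0.61.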
